A study of Mus musculus with 5 samples.

Results

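Transcripts of the proteasome subunit genes were examined in embryonic mouse cortical cells made to express Ptf1a, a transcription factor of the bHLH family that directs inhibitory neuron fates in the spinal cord, retina and cerebellum. The genes were all rows of the authors' gene table whose symbol is Psm followed by one letter from a to g and a number, which gave 48 of 23234 rows. Of these, 45 carried the authors' test, and Psma8, Psmb9 and Psmb11 did not. Cortices of CD1 embryos were electroporated at E12.5 (embryonic day), either with a Ptf1a/GFP construct (3 samples) or with a GFP-only construct (2 samples), and were taken at E15.5. Both groups therefore carried GFP and differed in Ptf1a. Each sample pooled 3 to 6 brains and 58000 to 106000 cells sorted for GFP, labelled as cortical pyramidal cells. The promoter of the construct is not given in the sources used here. The table holds 1 merged value per group, so no value per sample, no spread between samples and no depth can be given. Values are the authors' FPKM (fragments scaled to transcript length and to library size), with the GFP-only control first and Ptf1a misexpression second.

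The proteasome degrades proteins tagged with ubiquitin. Its 20S core is a barrel of alpha rings, which gate the entry, around beta rings, of which Psmb5, Psmb6 and Psmb7 carry the active sites for chymotrypsin-like, caspase-like and trypsin-like cleavage. The 19S cap has a base, with ATPases that unfold and feed in substrates, and a lid that removes ubiquitin. Immune cells and cells exposed to interferon can replace the active subunits by Psmb8, Psmb9 and Psmb10, which forms the immunoproteasome. Neurons depend on the complex for axon growth and synapse turnover, and it also clears cell cycle regulators in dividing cells.

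Ptf1a itself went from 0.210 to 38.9 FPKM and rose, as the construct labels require. Rose and fell are used where the adjusted p of the authors (q) was under 0.05, and a difference is that of log2(FPKM + 0.1), Ptf1a minus control. Of 11876 tested genes 19.1% fell and 18.7% rose, with a median difference of -0.01. Of 9 tested markers of pyramidal neurons 6 fell, and their summed level without Tubb3, which is listed at 0 in the control, went from 1836 to 1285 FPKM, of which Neurod6 alone made up 1717 and 1190 FPKM. Of 10 markers of cortical progenitors 10 rose, from a sum of 1803 to 3455 FPKM, of which Fabp7 alone made up 1652 and 3095 FPKM. Of 12 microglial markers 8 were tested and 1 fell, with a sum over the 12 of 19.7 FPKM in the control and 15.52 FPKM with Ptf1a, and the defining gene Ptprc was near 0, at 0.0639 and 0.0172 FPKM. Of 10 endothelial markers 4 were tested and 2 rose, with sums over the 10 of 11.0 and 13.7 FPKM. Cdh5 was near 0, at 0.0224 and 0.0406 FPKM, while Egfl7 stood at 6.25 and 4.76 FPKM. Of 5 tested red blood cell markers 3 fell, with sums of 149 and 62.1 FPKM. The part of these cell types in the differences below was not tested. In such bulk samples fewer cells of a type and less RNA per cell cannot be told apart.

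Proteasome transcripts were lower with Ptf1a or did not pass the test, and none rose. Of the 45 tested genes 22 fell (48.9%), 0 rose and 23 were not called, and the median difference was -0.24. Of the 45, 32 lay in the top of 10 abundance bins of tested genes, described below. In that bin 58.8% of all genes fell and 3.45% rose, so the members' counts were near those of equally abundant genes. The falls were modest: the summed level of all members went from 16898 to 13524 FPKM, which is 80.0% of the control. The sum over all tested genes also went to 80.4% of the control, so members made up 1.87% of it in the control and 1.86% with Ptf1a. The counts differed between parts of the complex. Constitutive core subunits fell in 10 of 14 tested genes, with a median difference of -0.42. All 14 were in that top abundance bin, in which 58.8% of genes fell. Subunits of the cap fell in 6 of 17, with a median of -0.05. This gap between core and cap was not tested, since genes of 1 fit are not replicates. It also goes with abundance: the median tested core gene stood at 725 FPKM in the control and the median cap gene at 275 FPKM.

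**Figure D1:**
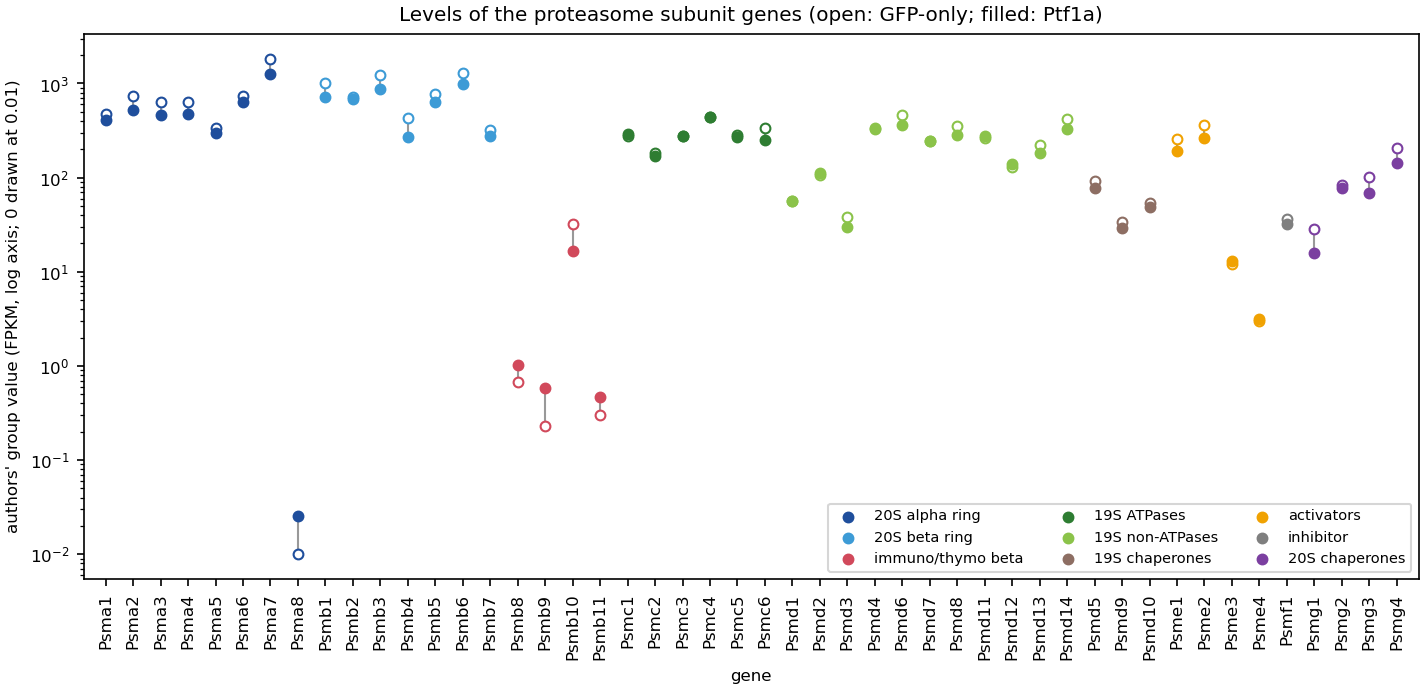
Group values of the 48 genes in FPKM on a log axis, with GFP-only as open and Ptf1a as filled circles, coloured by subunit class; a value of 0 is drawn at 0.01. The core subunits lie highest and mostly shift down, while the ATPases nearly coincide and Psmb8, Psmb9 and Psmb11 lie near or under 1 FPKM.

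In the alpha ring 5 of 7 tested genes fell, and all 7 lay in the top abundance bin, where 58.8% of genes fell. Psma7, the most abundant member, went from 1839 to 1256 FPKM, a difference of -0.55. Its standard error, implied by the ratio of the authors' log2 fold to their test statistic, was 0.18. Psma2 (732 to 519 FPKM), Psma3 (636 to 464 FPKM) and Psma4 (643 to 474 FPKM) fell to between 70.8% and 73.8% of the control. Psma6, which went from 742 to 630 FPKM, fell narrowly, with q = 0.0484 in the authors' deposited table. Psma1 (473 to 409 FPKM) and Psma5 (338 to 299 FPKM) were lower but not called. Psma8, the alpha subunit of the testis, was listed at 0 and 0.0257 FPKM. Thus all 7 expressed alpha genes had the lower value with Ptf1a, at 68.3% to 88.5% of the control, as had 87.6% of the tested genes in that top bin.

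The constitutive beta ring had the same count, 5 of 7, again with all 7 in the top abundance bin, where 58.8% of genes fell. Psmb4, a subunit without an active site, changed most in the constitutive core, from 429 to 272 FPKM, a difference of -0.66 with an implied standard error of 0.18. Psmb1 (1002 to 716 FPKM) and Psmb3 (1219 to 875 FPKM), which also lack an active site, fell to 71.4% and 71.8% of the control. Of the catalytic subunits, Psmb6 fell from 1299 to 986 FPKM and Psmb5 from 780 to 629 FPKM. Psmb7, at 324 and 278 FPKM, was not called at q under 0.05. Psmb2 differed least, at 718 and 690 FPKM. The ratio of the summed alpha to the summed beta levels was 0.936 in the control and 0.911 with Ptf1a, so both rings shifted nearly alike.

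Promoters are shown for the members with the largest fall (Psmb10, described below), for the pair of constitutive core genes that fell most (Psmb4 and Psma7), for the base subunit nearest to no difference (Psmc4) and for the most abundant member with an antioxidant response element core (Psmb6). That element is bound by the factors encoded by Nfe2l1 and Nfe2l2, known regulators of proteasome genes. The sequences are RefSeq promoters (GRCm38.p6), up to 250 bases upstream of the start, 5′ to 3′ on the gene's strand. Bases covered by an annotated transcript of the gene were left off. For Psmb4 and Psmc4 the 20 bases after the RefSeq start lie within the first 60 of an annotated GENCODE transcript. For Psmb10, Psma7 and Psmb6 they do not, so that the start there rests on the RefSeq table. Capitals mark matches on either strand to TGACNNNGC, CCAAT or GGGCGG. Their positions are chr8:105938445-105938642 (minus strand), chr3:94886962-94887208 (minus), chr2:180042465-180042714 (minus), chr7:28050102-28050342 (minus) and chr11:70525107-70525356 (plus).
Psmb10: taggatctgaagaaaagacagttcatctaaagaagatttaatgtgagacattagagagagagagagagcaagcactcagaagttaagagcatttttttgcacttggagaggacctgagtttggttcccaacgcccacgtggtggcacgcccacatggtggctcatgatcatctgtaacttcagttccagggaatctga
Psmb4: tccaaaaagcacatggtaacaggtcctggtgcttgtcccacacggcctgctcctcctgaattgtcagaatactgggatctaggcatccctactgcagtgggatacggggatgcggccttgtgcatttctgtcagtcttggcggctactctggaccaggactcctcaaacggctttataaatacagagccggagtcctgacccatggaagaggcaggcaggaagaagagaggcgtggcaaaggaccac
Psma7: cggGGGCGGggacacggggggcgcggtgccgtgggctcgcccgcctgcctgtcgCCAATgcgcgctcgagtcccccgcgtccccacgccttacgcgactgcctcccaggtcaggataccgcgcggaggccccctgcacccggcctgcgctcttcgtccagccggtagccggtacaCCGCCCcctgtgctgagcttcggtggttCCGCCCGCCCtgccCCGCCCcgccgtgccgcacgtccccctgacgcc
Psmc4: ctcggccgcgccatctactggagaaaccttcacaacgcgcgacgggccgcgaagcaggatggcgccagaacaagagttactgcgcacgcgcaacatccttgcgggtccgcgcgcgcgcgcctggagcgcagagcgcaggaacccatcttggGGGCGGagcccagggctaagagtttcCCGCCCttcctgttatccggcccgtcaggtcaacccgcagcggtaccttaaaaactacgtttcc
Psmb6: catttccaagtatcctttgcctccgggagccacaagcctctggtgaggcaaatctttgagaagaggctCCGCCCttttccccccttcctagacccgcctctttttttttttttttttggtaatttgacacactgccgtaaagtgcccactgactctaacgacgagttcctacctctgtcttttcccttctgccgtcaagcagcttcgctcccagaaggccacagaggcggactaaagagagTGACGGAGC
Psmb10 and Psmb4 hold no match, Psma7 holds 1 CCAAT and 5 GGGCGG matches, Psmc4 holds 2 GGGCGG matches, and Psmb6 holds 1 TGACNNNGC match, 9 bases to 1 base upstream of the RefSeq start, and 1 GGGCGG match. In Psma7, 1 pair of GGGCGG matches overlaps.

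Promoters were found for 40 of the 48 members, in 43 windows. For 31 of these windows the 20 bases after the RefSeq start lie within the first 60 of an annotated transcript. The shares below do not leave out the others. TGACNNNGC was present in 5 of these windows (11.6%), those of Psmb5, Psmb6, Psmc6, Psmd9 and Psmd12, against 10.2% of all 32851 promoter windows of the same 250 bases. CCAAT was present in 32.6% of member windows against 33.8% of all, and GGGCGG, the GC box, in 53.5% against 32.7%. Split by outcome, 54.5% of the 22 windows of fallen members and 52.6% of the 19 windows of uncalled members held GGGCGG. The motif was thus about as frequent in both sets.

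In the cap, the 6 ATPases (Psmc1 to Psmc6) had 1 fallen and a median difference of -0.03, the smallest in size of any subunit class on the deposited scale. Psmc6 fell from 335 to 249 FPKM, a difference of -0.43. Psmc4 stood at 439 and 438 FPKM, Psmc3 at 276 and 279 FPKM, and Psmc1 at 275 and 290 FPKM. Psmc5 (283 and 272 FPKM) and Psmc2 (183 and 168 FPKM) were not called either. For these 5 genes the differences were smaller than their implied standard errors, which lay near 0.20. The ratio of the summed ATPase to the summed alpha ring level was 0.332 in the control and 0.419 with Ptf1a.

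The 11 non-ATPase cap genes had 5 fallen, and these were all lid subunits, a division looked at after the values were seen. Psmd14, the deubiquitinase of the lid, fell from 418 to 327 FPKM. Psmd6 (459 to 364 FPKM), Psmd8 (353 to 286 FPKM), Psmd13 (220 to 184 FPKM) and Psmd3 (37.8 to 30.2 FPKM) fell to between 79.2% and 83.8% of the control. The remaining lid genes were Psmd7 (246 and 244 FPKM), Psmd11 (267 and 278 FPKM) and Psmd12 (129 and 138 FPKM), none called. In the base, the scaffold genes Psmd1 (56.3 and 55.9 FPKM) and Psmd2 (107 and 111 FPKM) and the ubiquitin receptor gene Psmd4 (337 and 326 FPKM) were not called. With the ATPases included, 1 of 9 base genes fell, against 5 of 8 lid genes. In the top abundance bin 1 of 8 base genes and 4 of 7 lid genes fell, against 58.8% of all its genes. The lid thus fell about as often as genes of that bin, and the base less often. Summed, base transcripts stood at 95.5% of the control and lid transcripts at 87.0%.

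**Figure D2:**
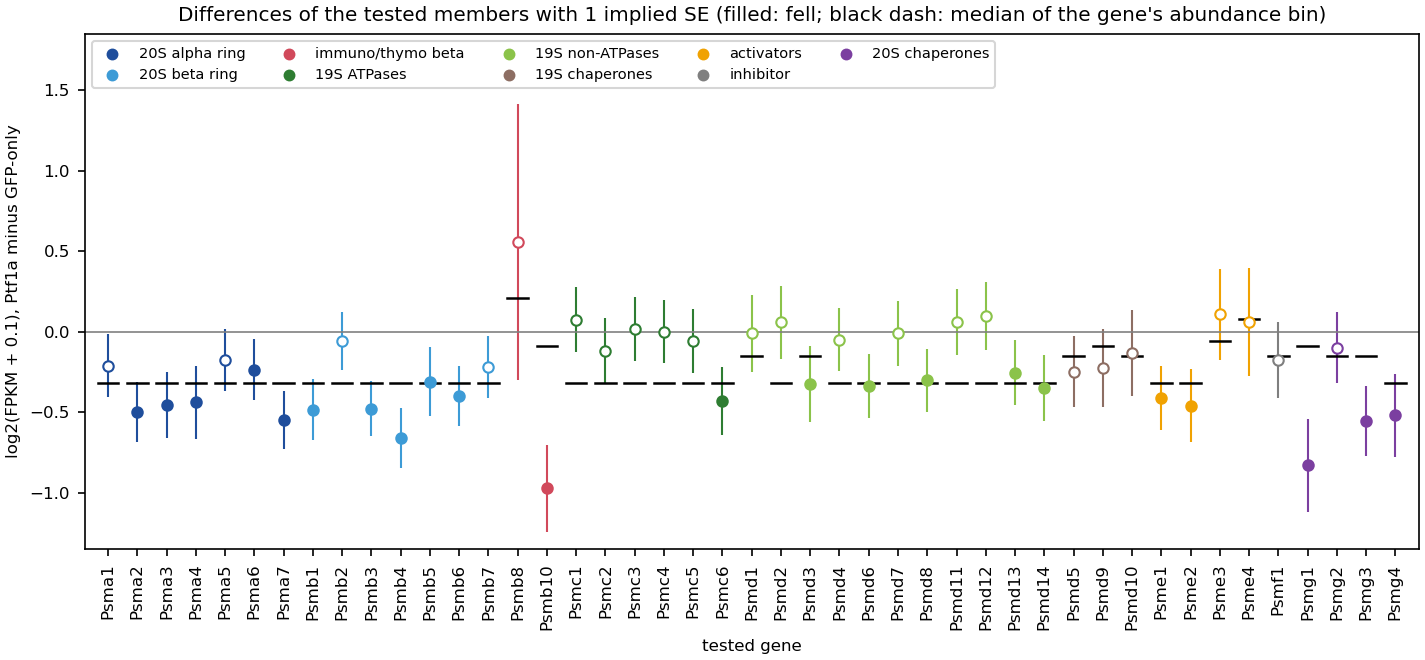
Difference in log2(FPKM + 0.1), Ptf1a minus GFP-only, for the 45 tested genes, with bars of 1 implied standard error; filled points fell, open points were not called, and black dashes give the median of tested genes in the same abundance bin. Psmb10 and Psmg1 lie farthest below zero, while 5 of the 6 ATPases lie near it and above their dash.

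Assembly chaperones of the core fell in 3 of 4, and in 0 of 4 with the normal p of the authors' test statistic, described at the end. Of all tested genes, 23.8% fell in the abundance bin of Psmg1, 32.2% in that of Psmg2 and Psmg3, and 58.8% in that of Psmg4. Psmg1, which pairs with Psmg2 to start the alpha ring, went from 28.4 to 15.9 FPKM, a difference of -0.83 with an implied standard error of 0.29. Its partner Psmg2, at 83.7 and 78.2 FPKM, was not called. Psmg3 (101 to 68.8 FPKM) and Psmg4 (207 to 144 FPKM), which form a second pair, both fell, with differences of -0.55 and -0.52. The partners of the first pair thus stood apart, although the difference between them was not tested. Of the 3 chaperones of the cap base, Psmd5 (92.1 and 77.5 FPKM), Psmd9 (34.1 and 29.1 FPKM) and Psmd10 (53.4 and 48.6 FPKM), none was called. Psmd5 lay just outside the threshold, with q = 0.0528 in the authors' deposited table.

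Among activators, both genes of PA28, a ring that opens the core without ATP, fell. Psme1 went from 257 to 193 FPKM and Psme2 from 363 to 264 FPKM, with differences of -0.41 and -0.46. Both lie in the top abundance bin, in which 58.8% of genes fell. Less the median of that bin they stood at -0.09 and -0.14. With transcript length also taken in, as described below, they stood at 0.052 and 0.0033. Their ratio was 0.708 in the control and 0.732 with Ptf1a. They lie 2.19 kb apart on chromosome 14 (Psme1 at 56197331 to 56204091 and Psme2 at 56206277 to 56209938, mm9). Psme3, the nuclear activator, stood at 12.2 and 13.1 FPKM, and Psme4, the large activator PA200, at 3.00 and 3.13 FPKM, neither called. Psmf1, which encodes the inhibitor PI31, was not called, at 36.7 and 32.4 FPKM.

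Of the immunoproteasome genes, Psmb10 changed most of all tested members, from 32.3 to 16.4 FPKM (chromosome 8, 108459628 to 108462292, mm9). Its difference was -0.97 with an implied standard error of 0.27, against a median of -0.09 in its abundance bin. Psmb8 was not called, at 0.672 and 1.03 FPKM with an implied standard error of 0.86. Psmb9, for which no test was made, had values of 0.229 and 0.579 FPKM. Psmb10 thus made up 97.3% of the 3 transcripts in the control and 91.1% with Ptf1a. Relative to the constitutive subunit each replaces, Psmb10 went from 9.99% to 5.91% of Psmb7, Psmb8 from 0.0861% to 0.164% of Psmb5, and Psmb9 from 0.0176% to 0.0587% of Psmb6. The 3 immunoproteasome transcripts together were 1.38% of the 3 constitutive ones in the control and 0.953% with Ptf1a, a value set mainly by Psmb10. Psmb11, the thymus subunit, stood at 0.301 and 0.471 FPKM without a test, 7.32 kb from Psmb5.

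Genes of class I antigen presentation and the interferon response, which use or induce the immunoproteasome, were taken as 1 list. Of its 12 tested genes 7 rose, against 18.7% of all tested genes, and 0 fell, with a median difference of 0.39. Those that rose were 6 genes of class I chains and their loading and folding (B2m, H2-K1, H2-D1, Tapbp, Calr and Pdia3) and, of the interferon-response genes, Irf1. The class I heavy chain genes H2-K1 and H2-D1 rose from 1.87 to 10.3 FPKM and from 53.2 to 80.5 FPKM. B2m, their light chain, rose from 38.7 to 73.7 FPKM, and the interferon-response factor Irf1 from 0.636 to 2.06 FPKM. Tapbpl and the interferon-response genes Irf9, Stat2, Isg15 and Ifit2 were not called. A further 8 genes of the list had no test, as had Psmb9, and all of them lay under 1 FPKM. Tap1 (0.151 and 0.200 FPKM) and Tap2 (0.224 and 0.437 FPKM), chosen after their values were seen, were higher with Ptf1a, as were Ifit1 and Nlrc5. The other untested genes, Erap1, Irf7, Irf8 and Ifit3, were lower. With the normal p of the authors' test statistic, described at the end, 2 genes of the list rose in place of 7.

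**Figure D3:**
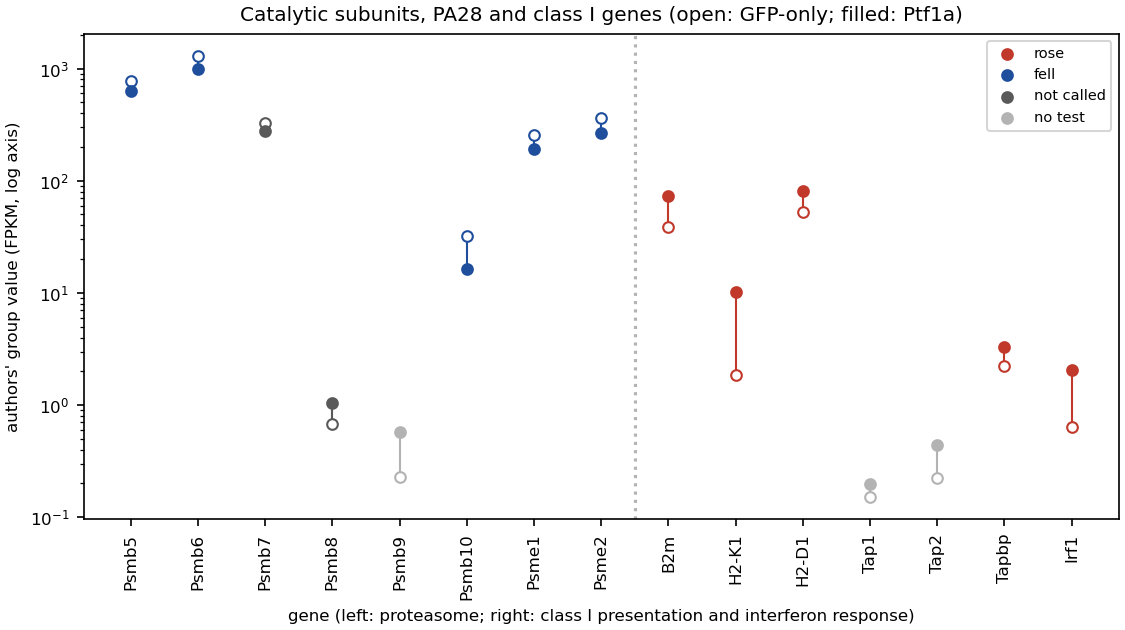
Group values in FPKM on a log axis for the catalytic subunits and PA28 (left) and 7 genes of class I presentation and the interferon response (right). GFP-only is open, Ptf1a is filled, and colour gives the authors' call. The 7 genes were picked from that list and are all higher with Ptf1a. Its tested genes that were not called and its untested genes that were lower are not drawn. Psmb5, Psmb6, Psmb10, Psme1 and Psme2 fell, and B2m, H2-K1, H2-D1, Tapbp and Irf1 rose. Psmb8 and Psmb9 remain far under Psmb5 and Psmb6.

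Members fell about as often as other genes of high abundance. Tested genes were divided into 10 bins of mean log2(FPKM + 0.1), and 32 members lay in the top bin, whose genes had a mean of at least 95.0 FPKM. In that bin 58.8% of the 1187 genes fell and 3.45% rose, with a median difference of -0.32. Of the 32 members there 18 fell (56.2%), with a median of -0.28. In the bin below, 2 of 7 members fell, against 32.2% of its genes, and in the third from the top 2 of 3, Psmb10 and Psmg1, against 23.8%. Over all 45 members the median difference less the bin median was 0.01.

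The classes differed in that measure. Core genes had a median of -0.10 less their bin, but the top bin is wide, and against the 400 genes nearest in abundance their median was 0.02, with 7 of 14 below. Cap genes had a median of 0.26 above their bin and 0.25 above the nearest genes, with 3 of 17 below. Base genes had 0.27 and 0.26, with Psmc6 as the 1 gene below, and lid genes 0.04 and 0.03. The core chaperones lay at -0.30 less their bin. Core transcripts thus fell about as far as transcripts of their own abundance, while base transcripts stood above them. No test of these gaps could be made from single group values.

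**Figure D4:**
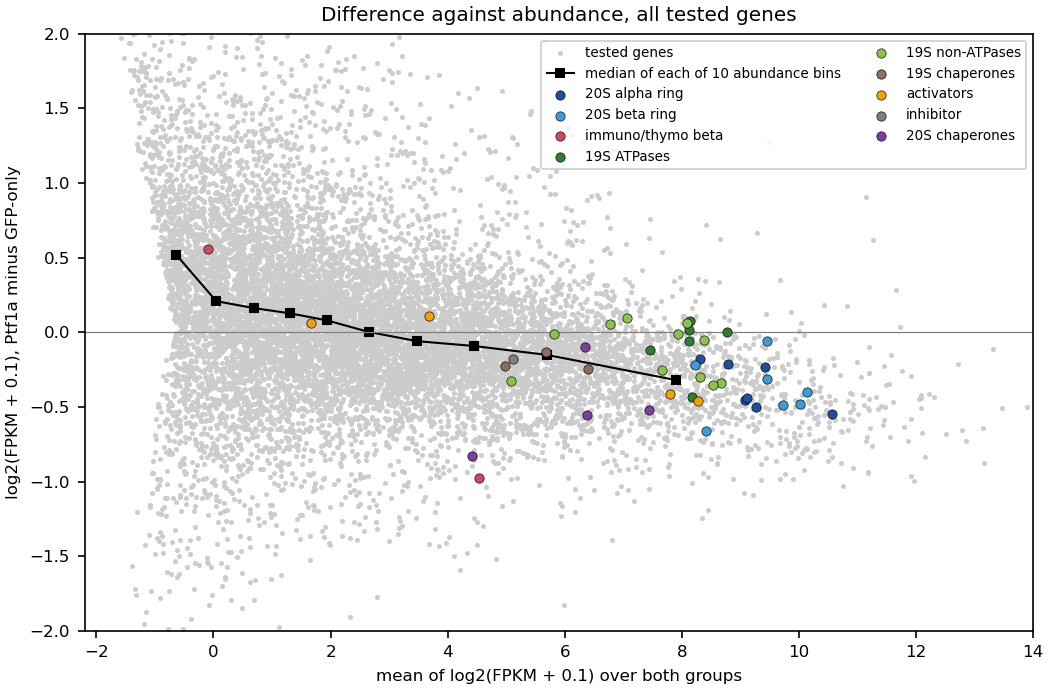
Difference in log2(FPKM + 0.1) against mean log2(FPKM + 0.1) for tested genes (grey), with the medians of 10 abundance bins (black squares) and the 45 tested members coloured by class; 289 tested genes lie beyond the vertical axis. The bin medians decline from 0.52 to -0.32, and the core genes lie along the lower right end of that decline.

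Transcript length moved with the differences too. Within the top abundance bin 1059 of 1187 genes had an annotated length, and they were divided into terciles. The median difference was -0.46 in the shortest tercile, where 77.6% fell, -0.28 in the middle one (55.5%) and -0.17 in the longest (40.8%). Members fell in 7 of 8 in the shortest, 5 of 14 in the middle and 6 of 10 in the longest tercile. All 15 cap genes of the bin lay in the middle and longest terciles, where 2 of 8 and 3 of 7 fell, while 5 of 14 core genes lay in the shortest. Against genes of the same bin and tercile, the median was 0.021 for the core, 0.18 for the cap and 0.22 for the base. For the lid it was -0.067, with 5 of 8 genes below, so that with length taken in the lid no longer stood above the core. The core genes of the longest tercile, Psma2, Psma3 and Psmb1, lay at -0.33, -0.29 and -0.32 relative to its median. The part of length in the members' differences was not tested.

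**Figure D5:**
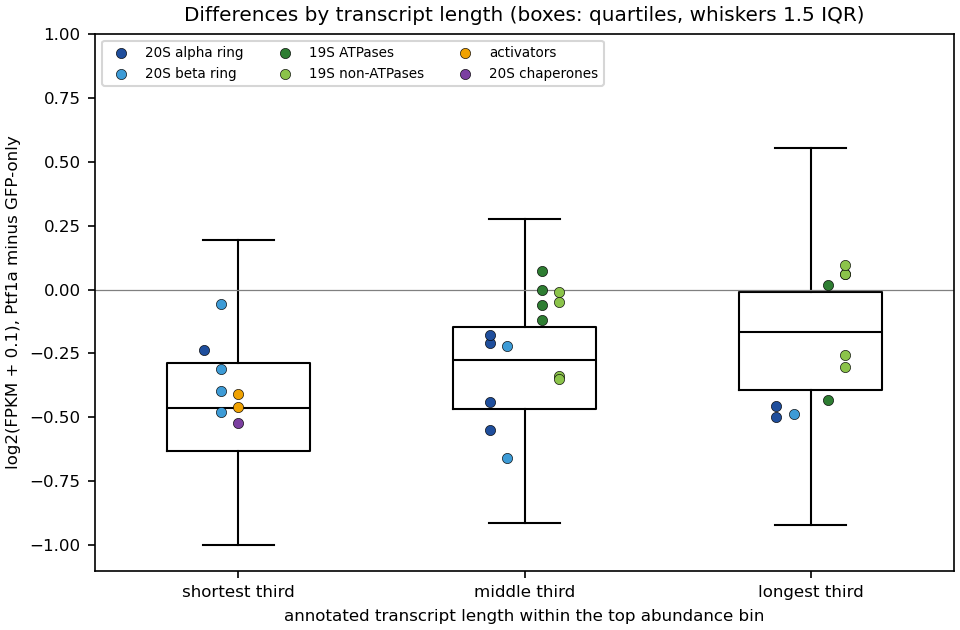
Difference in log2(FPKM + 0.1) by tercile of annotated transcript length in the top abundance bin; boxes give the median and quartiles of all genes there, whiskers reach 1.5 interquartile ranges, and coloured points are the 32 members. The boxes move up with length, and most ATPases and several non-ATPases lie above their box's median.

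The scale of the table bears on the direction. Dividing each group by the summed FPKM of tested genes moved every difference up by 0.31. The core median was then -0.10, the cap median 0.27 and the base median 0.31. With that scaling 27 of 45 members stood higher with Ptf1a, against 8 as deposited, and the median over all tested genes was also 0.31. Scaling to the upper quartile of each group's genes above 0, of which there were 17394 and 18995, moved all differences by 0.28, and over genes above 0 in both groups by 0.01. Whether proteasome transcripts were lower per cell cannot be read from these values.

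Other genes of the pathway were taken from lists. Of 12 tested genes for associated and assembly factors 3 fell and 0 rose, against 19.1% and 18.7% of all tested genes. Pomp, the maturation factor of the core, fell from 933 to 650 FPKM, Shfm1, a small lid subunit, from 692 to 566 FPKM, and Zfand5, a zinc finger protein that binds the proteasome, from 5.67 to 4.32 FPKM. The ubiquitin receptor gene Adrm1 (252 and 227 FPKM) and the thioredoxin-like Txnl1 (101 and 88.1 FPKM) were not called. The list also held Psmc3ip, a recombination factor that shares the symbol's start but is no proteasome gene.

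Of 10 tested transcription regulators 1 rose and 0 fell, against 18.7% and 19.1% of all tested genes. Nfe2l2, the antioxidant factor, rose from 0.569 to 3.54 FPKM, a difference of 2.44. Nfe2l1, which restores proteasome transcription when the complex is inhibited, was not called, at 3.28 and 3.60 FPKM; it was chosen after its value was seen. Nfyc and Nfyb, subunits of the CCAAT-binding factor, were not called. The proteasome genes with a TGACNNNGC match named above had 3 that fell (Psmb5, Psmb6 and Psmc6) and 2 that were not called. Of all tested members 22 of 45 fell. The motif was in 13.6% of the 22 windows of fallen members and 10.5% of the 19 windows of uncalled members, against 10.2% of all windows. A link of these genes to Nfe2l2 was not tested.

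Of 3 tested ubiquitin and E1 genes 3 fell, against 19.1% of all tested genes and 58.8% in the abundance bin of Rps27a. Rps27a, which encodes ubiquitin fused to a ribosomal protein, went from 2031 to 1140 FPKM. The ubiquitin-activating enzyme gene Uba1 went from 85.4 to 60.5 FPKM, and Uba6, the alternative E1, from 1.42 to 0.929 FPKM. Their differences less the abundance bin had a median of -0.51. The polyubiquitin gene Ubb had too much data for the authors' test and is listed at 0 in both groups, so no change can be given. Of 11 tested shuttle factor and p97 genes 0 rose and 0 fell at q under 0.05, and 0 rose and 0 fell by the normal p. Nsfl1c stood at 227 and 197 FPKM and Ufd1l at 103 and 97.4 FPKM.

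The calls rest on the authors' test, whose smallest q was shared by 14 members and by 1803 tested genes. It called differences little larger than their implied standard error, such as that of Psma6, -0.24 with a standard error of 0.19. At q under 0.01, 19 members fell, against 12.9% of tested genes that fell and 12.9% that rose. At q under 0.1, 25 fell, against 22.7% that fell and 22.2% that rose. With a change of at least 1.5-fold required at q under 0.05, only Psmb10, Psmb4 and Psmg1 fell, 3 members against 8.06% of tested genes that fell and 13.6% that rose. The authors' test statistic was also read as a normal deviate and adjusted over the 11831 genes that had one. That gave 3 fallen members and 0 risen, against 2.81% of genes that fell and 3.31% that rose. The 3 genes were Psmb10, Psmb4 and Psma7, with adjusted values of 0.00903, 0.0104 and 0.0395.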

How the data were processed

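RNA from sorted cells was amplified from 2.1 to 7.8 ng with a low-input kit and sequenced from both ends, per the labels' protocols. Submitters' processing notes list mm9, Cuffdiff, Cufflinks 2.1.1, TopHat2 2.0.8 and CASAVA 1.8.2; annotation and parameters are not given in the sources used here. The authors deposited a single FPKM value per gene and group, a log2 fold, a test statistic (a signed score) and a p-value with its q-value, per the file headers. PIG was read as the Ptf1a/GFP construct, the other heading being GFP. Rows numbered 23234, of which 11876 were tested, 11194 had no test, 148 too little and 16 too much data; these 16 stood at 0 in at least 1 group, so a 0 can be a failed estimate.

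Calls use the deposited q under 0.05. Differences use log2(FPKM + 0.1), which understates changes of weak genes. Abundance bins, nearest genes and terciles are descriptions; the first 2 were tested on simulated data. Length is that of the longest protein-coding transcript in GENCODE M21, matched by symbol; loci are mm9, starts read as counting from 0, since 4968 of 20792 loci then had an annotated span, against 629 otherwise. Replicates were merged, so p-values cannot be checked against samples, whose independence beyond separate pools is not stated. Psma3, Psma4, Psmb5, Psmd1 and Psme1 share a locus with another gene, at most at 3.37% of their control level. All members may be named, with up to 4 called and 2 uncalled genes per pathway list. The class I and interferon list went beyond this rule, since all of its tested genes were named. Nfe2l1, Psmc3ip, the untested Ubb and the untested genes of the class I and interferon list were also named outside the rule. Members and lists were chosen with earlier results of these data known; some genes of 2 pathway lists are not reported here and were left out of their counts. Python 3.11.15, pandas 2.3.3 and scipy 1.17.1 were used.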

Additional observations from a re-analysis of the deposited data

How the results depend on the processing

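The 22 falls and 0 rises were within 1.5 times at q under 0.01 (19 falls), at q under 0.1 (25) and with minimums of 1 or 5 FPKM (22 each), and 0 rose under any of these, the normal p or the 1.5-fold minimum. Falls numbered 3 by the normal p and 3 with the 1.5-fold minimum. By the normal p, falls numbered 1 in the alpha ring, 1 in the beta ring, 0 among ATPases, 0 among non-ATPases (3 at q under 0.01), 0 among activators, 0 among core chaperones, 1 among associated factors (also 1 at q under 0.01) and 1 among ubiquitin and E1 genes, and 2 class I and interferon genes rose. The median difference of members, core and cap kept its sign with pseudocounts of 1 and 0.01, a 1 FPKM minimum, centring on tested genes and the upper quartile over genes above 0 in both groups. With the upper quartile of each group it was 0.041, -0.14 and 0.23, and with equal sums, added after seeing the data, 0.079, -0.10 and 0.27; the cause is the common shift. Less the abundance bin, the members' median was -0.019 with bins on the Ptf1a value, and the core's was 0.022 against the 400 nearest genes and 0.021 with length terciles (added after seeing the data); the cause was not tested. The ratio of immunoproteasome to constitutive transcripts changed by -0.54 (log2), by -0.76 for Psmb10 over Psmb7, 0.93 for Psmb8 over Psmb5 and 1.74 for Psmb9 over Psmb6. Centred on tested genes, Psmc4 was at 0.0079, against -0.00084 as deposited. No paired analysis was possible because the table holds 1 merged value per group, and leaving out replicates was not run for the same reason. Depth is unknown, and the implied standard errors, near 0.20, are as large as many of the differences.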

Other observations

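Subunits that enter the complex in equal number had unequal transcript levels. Within the core the highest level, that of Psma7, was 5.68 times the lowest, that of Psmb7, in the control, and 4.62 times the lowest, that of Psmb4, with Ptf1a. The ATPases were closer together, at 2.40 and 2.60 times between Psmc4 and Psmc2. In the cap as a whole the range was wider, 12.1 and 14.5 times, with the lid gene Psmd3 as the lowest in both groups. The median core gene stood at 2.63 times the median cap gene in the control and 2.11 times with Ptf1a. FPKM is scaled to length, which allows only a rough comparison of levels between genes. The median annotated transcript length was 1162.5 bases for tested core genes and 1819 bases for cap genes. Effects on these levels of amplification from little RNA, or of mapping to related sequences elsewhere in the genome, were not examined.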
